A study of Mus musculus with 20 samples.

Results

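The genes described here are those of the mitochondrial respiratory chain and the ATP synthase. They were chosen by symbol, as every gene whose symbol starts with Nduf, Uqcr or Atp5, the genes Sdha to Sdhd, those from Cox4 to Cox8, and Cyc1. This gave 93 of the 36128 genes in the files, 36 of complex I, 4 of complex II, 9 of complex III, 20 of complex IV and 15 of complex V, plus 9 genes that share the symbols but make no subunit (the complex I assembly factors Ndufaf1 to Ndufaf7 and Atp5sl, and Atp5s). The 20 of complex IV include Cox7a2l, a supercomplex factor that is not a subunit of the enzyme itself. The rule itself uses symbols alone. Subunits encoded by the mitochondrial genome carry other symbols and were not analysed here. PolyA RNA of whole snap-frozen liver was sequenced from 5 males and 5 females of each of 2 inbred mouse strains at 8 weeks of age, without treatment or genetic modification, 1 library per mouse and 20 livers in all. C57BL/6J (B6) is a classical laboratory strain and CAST/EiJ (CAST) is derived from wild mice. The study asked which genes differ between the sexes in each strain. Strain and sex were taken from the library titles. For the CAST males and the B6 females, a second entry of the sample record gives the opposite strain.

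The respiratory chain sits in the inner mitochondrial membrane. Complexes I and II pass electrons from NADH and succinate to ubiquinone, complex III passes them on to cytochrome c, and complex IV passes them to oxygen. Complexes I, III and IV pump protons, and complex V, the ATP synthase, lets the protons flow back to make ATP. Hepatocytes are rich in mitochondria and use this ATP for gluconeogenesis, urea synthesis and the making of plasma proteins.

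Counts per liver summed to between 7969482 and 35328573. The B6 males (15919560 to 28209823) were each deeper than any B6 female (11995146 to 14118064), so sex and depth cannot be told apart in B6. The CAST females (11123291 to 35328573) overlapped the CAST males, whose lowest total was that of the whole set. Hepatocyte markers such as Alb and Cps1 were high in every liver, with the 8 listed markers summing to at least 17870 FPKM (reads per gene scaled to its exon length and to the library's total), and those of skeletal muscle and adipocytes summed to at most 0.651 and 1.38 FPKM in any liver. In whole liver, fewer cells of a type and less RNA per cell cannot be told apart.

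Most of these genes were abundant in liver. Of the 93, 76 had a mean over the 20 livers of at least 10 FPKM, 9 lay between 1 and 10, and 8 lay under 1. These means use the names as deposited, and the 76 include Cox7b2, whose CAST values line up with another gene and which is listed at 0 in B6. The highest was Atp5b, the catalytic beta subunit of the ATP synthase, at 311.4 FPKM. Cox4i1, a nuclear-encoded complex IV subunit, stood at 191.3 FPKM, and Uqcrq, a small complex III subunit, at 185.7 FPKM. The highest complex I gene was Ndufb9, an accessory subunit, at 91.45 FPKM, and the highest of complex II was Sdha, the flavoprotein that oxidises succinate, at 77.43 FPKM. The lowest of complexes II, III and V were Sdhc (a membrane anchor) at 54.34, Uqcrc2 (a core protein) at 58.02 and Atp5c1 (the gamma subunit of the rotor) at 52.29 FPKM. The 9 genes that make no subunit were lower, from Ndufaf5 at 0.87 to Ndufaf1 at 8.521 FPKM.

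Transcripts of complex IV were almost entirely those of its liver and ubiquitous isoforms. Cox8c and Cox6b2, known from testis, stood at a mean of 0 and 0.1024 FPKM, Cox4i2, known from lung, at 0.07174, and Cox6a2 and Cox8b, known from heart and skeletal muscle, at 0.007532 and 0.01828. Of the FPKM of each isoform pair or trio, Cox4i1, Cox6a1, Cox6b1 and Cox8a gave over 99.7% in each liver. Cox7a2 gave less against its muscle isoform Cox7a1, with group means of 97.86 to 98.9%, Cox7a1 itself having a mean of 0.8423 FPKM. Ndufa4, once counted to complex I and now to complex IV, gave 99.43% or more of its pair with Ndufa4l2 (mean 0.3752 FPKM), a relative known to be induced in hypoxia. Cox7a2l, known from supercomplexes of complexes III and IV, stood at 30.45 FPKM over the livers of both strains. The function of its protein in either strain was not tested.

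The c ring of the ATP synthase is encoded by 3 genes whose mature protein is the same, and the mix differed between groups. Of their summed FPKM, Atp5g3 gave 58.51% ± 0.38 (SD, n = 5) in males and 54.96% ± 0.41 in females of B6, and 56.66% ± 1.3 and 55.4% ± 1.8 in those of CAST. In B6 the males (58.09 to 59.13%) and females (54.43 to 55.31%) did not overlap, whereas in CAST the sexes did. Atp5g1 gave 22.66 and 24.31% in males and females of B6 and 27.02 and 27.78% in those of CAST. Every CAST liver (25.5% and above) lay above every B6 liver (24.9% and below) in the Atp5g1 share. Every stretch of 50 bases of the Atp5g2 transcript also occurs elsewhere in mm9 (100% of its windows), so its uniquely mapped reads, and its share of 16.31 to 20.73%, are uncertain. The other 2 shares have this value in their sum, and 28.1% of the windows of Atp5g1 itself occur elsewhere.

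Some gene names carry the values of another gene in the CAST columns, and this bears on 9 of the 93. The counts under 5455 gene names in CAST line up with B6 counts of a different gene, the one that takes the same place when the identifiers are sorted with, rather than without, the mark that encloses each name. Across the 4558 protein-coding names concerned, the correlation between the mean log2(CPM + 0.5) of B6 and CAST (CPM, counts scaled to the library's total) was 0.55 with the names as deposited and 0.979 after re-ordering, the same as the 0.979 of the 16012 protein-coding names whose place does not change. These correlations are across genes and describe the tables. Rpl32, Rpl39 and Rps26, ribosomal protein genes that every cell uses, are listed at 0 in each CAST liver and read 54.43 FPKM or more in each B6 liver.

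The clearest pair is Cox7b, the ubiquitous form of a small complex IV subunit, and Cox7b2, its testis form. Cox7b had 113 CPM in B6 and is listed at 0 in all 10 CAST livers, and Cox7b2 is listed at 0 in all 10 B6 livers and had 124.6 CPM in CAST. Their coding sequences are shown since they are far enough apart for 50-base reads to tell them from each other. Cox7b (chrX:103211039-103217789, plus strand) and Cox7b2 (chr5:71834063-71939444, minus strand, both mm9) code in 243 and 249 bases, of which 168 are identical (67.5% of the longer), and the longest run that they share is 11 bases. Capitals mark the bases that differ.
Cox7b: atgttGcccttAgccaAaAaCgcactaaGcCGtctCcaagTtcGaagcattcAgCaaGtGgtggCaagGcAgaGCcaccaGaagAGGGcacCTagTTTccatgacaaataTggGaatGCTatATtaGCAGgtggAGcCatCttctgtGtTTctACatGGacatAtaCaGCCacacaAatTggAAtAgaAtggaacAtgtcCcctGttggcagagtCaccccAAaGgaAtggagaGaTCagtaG
Cox7b2: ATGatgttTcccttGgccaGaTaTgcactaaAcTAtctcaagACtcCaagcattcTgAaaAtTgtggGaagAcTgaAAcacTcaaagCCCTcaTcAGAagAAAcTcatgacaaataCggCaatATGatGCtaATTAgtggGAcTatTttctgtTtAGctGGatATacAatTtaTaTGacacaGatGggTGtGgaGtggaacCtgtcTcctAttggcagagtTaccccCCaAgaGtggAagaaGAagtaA
The other 7 names are Atp5j, Atp5j2, Ndufa1, Ndufa10, Ndufa11, Ndufa12 and Ndufa13. Under the name Ndufa1, CAST had 138.2 CPM, against 38.83 for Ndufa1 and 133.3 for Ndufa10 in B6. Under the name Ndufa10, CAST had 42.54 CPM, against 133.3 for Ndufa10 and 38.34 for Ndufa11 in B6. The names trade places within a complex, so sums over a complex are not touched. Results that use CAST livers are given for the 82 tested genes whose names keep their place, with the members' count over all names beside them.

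**Figure D1:**
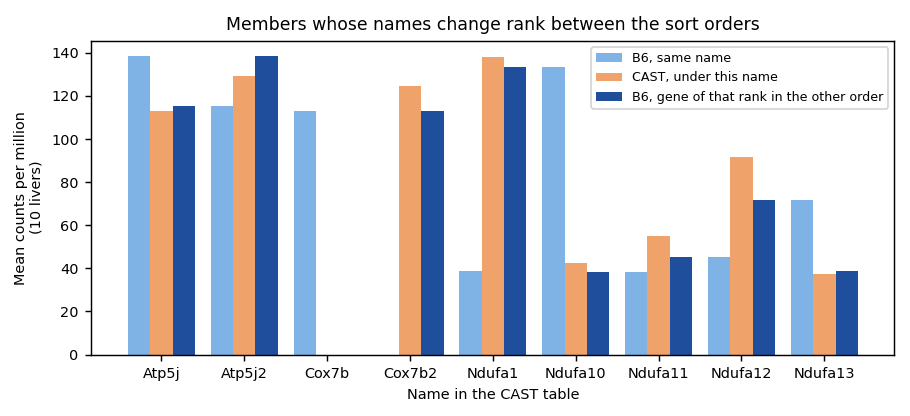
Mean CPM over 10 livers for the 9 names whose place changes with the sort order: B6 under the same name (light blue), CAST under this name (orange), and B6 for the gene that takes this place in the other order (dark blue). The orange bars sit by the dark blue ones, as for Ndufa1 (138.2 in CAST, 133.3 and 38.83 in B6).

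As a share of all counts, the 93 genes together gave 1.19% ± 0.028 (SD, n = 5) in males and 1.01% ± 0.026 in females of B6. In CAST they gave 1.25% ± 0.14 in males and 1.3% ± 0.097 in females. The B6 males (1.16 to 1.22%) and B6 females (0.975 to 1.04%) did not overlap. The CAST sexes did (1.02 to 1.41% and 1.2 to 1.43%). Complex V gave the largest share, with 0.437% ± 0.011 in males and 0.384% ± 0.0077 in females of B6, and 0.405 to 0.543% over the CAST males and 0.487 to 0.563% over the CAST females. Complex I followed with 0.279% ± 0.012 and 0.231% ± 0.0089 in the sexes of B6 and 0.277% ± 0.034 and 0.287% ± 0.026 in those of CAST, males first. Complex IV gave 0.188% ± 0.0092 and 0.149% ± 0.0093 in B6, complex III 0.159% ± 0.0054 and 0.133% ± 0.0045, and complex II 0.107% ± 0.0039 and 0.0983% ± 0.0045. Complexes I, III, IV and V had no overlap between the sexes in B6. The complex II ranges met (0.101 to 0.111% and 0.0909 to 0.103%).

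**Figure D2:**
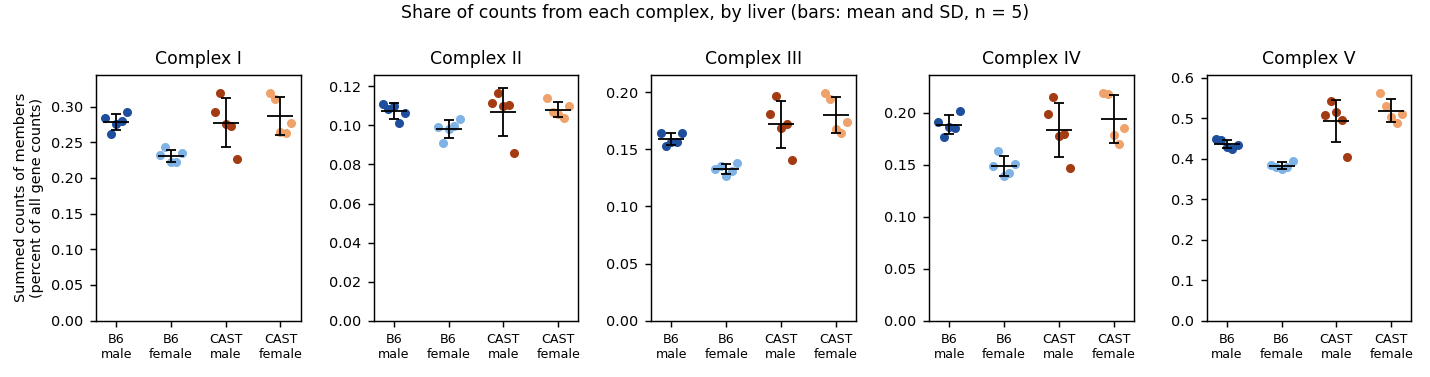
Summed counts of the genes of each complex as a percent of all gene counts (vertical axes, each from 0), 1 point per liver, with mean and SD (n = 5). The mean of the B6 females is the lowest of the 4 groups in each panel, with complex V at 0.376 to 0.396% against 0.424 to 0.449% in B6 males.

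In B6, 41 of the 91 genes tested were higher in males and 0 lower at an adjusted p under 0.05 (quasi-likelihood test of edgeR, adjusted over 25690 genes by the Benjamini-Hochberg method). Over all genes tested, 3.99% were higher and 3.56% lower in males. The changes were small: the median log2 fold change of the 91 was 0.28 against 0.02 over all genes, 88 of the 91 lay above 0, and 0 were called with a fold change above 2 (1.16% of all genes upward and 1.24% downward). In 49 of the 91 the FPKM of every male exceeded that of every female, and in 0 it lay below (3.98 and 3.53% of all genes). DESeq2 called 55 higher and 0 lower (8.03 and 7.68% of the genes to which it gave an adjusted p), and at an unadjusted p under 0.05 edgeR found 69 higher and 0 lower (11.2 and 9.26% of all genes). The count moved by over 1.5 times without B6 male 1 (26), B6 male 5 (21), B6 female 3 (23) or B6 female 4 (25), each time with 0 lower.

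Within complex I, 18 of 36 genes rose in males (median 0.29), 3 of the 7 core subunits and 15 of the 29 accessory ones. Ndufb3, an accessory subunit of the membrane arm (chr1:58643228-58652808, plus strand, mm9), read 32.97, 25.55, 27.64, 38.19 and 32.69 FPKM in the males and 23.63, 24.12, 21.65, 19.41 and 20.24 in the females. Every male was above every female, with a log2 fold change of 0.54 ± 0.11 (SE, adjusted p = 0.004277). The core subunit Ndufv1, which binds NADH and the flavin, read 43.15, 42.68, 43.54, 40.71 and 39.86 FPKM in males and 33.05, 34.41, 32.58, 35.32 and 35.28 in females, again without overlap (0.32 ± 0.07, adjusted p = 0.008529). Ndufs1, which carries iron-sulfur clusters, read 19.45 to 22.84 FPKM in males and 18.11 to 21.72 in females, which overlap and were not called apart (0.08 ± 0.07, adjusted p = 0.5918).

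Of the 4 complex II genes 0 passed the test, with values of 0.10 for Sdha and Sdhd, 0.16 for Sdhc and 0.21 for Sdhb, the iron-sulfur subunit (2 of the 4 had an unadjusted p under 0.05 in edgeR, and DESeq2 called 0). Sdha read 81.57, 85.79, 83.79, 73.6 and 74.67 FPKM in males and 75.61, 66.67, 77.86, 80.92 and 77.95 in females, with both sexes spread over much of the same range. In complex III, 5 of 9 genes rose: Uqcr11, Uqcr10, Uqcrq, Uqcrh and Cyc1. Uqcr11, a small subunit at the edge of the complex (chr10:79865742-79869575, minus strand, mm9), read 104.4, 96.94, 99.47, 103.6 and 107 FPKM in males and 76.38, 82.78, 67.96, 70.04 and 70.64 in females. The sexes did not overlap (0.50 ± 0.08, adjusted p = 0.0008561), although 39.1% of its 50-base windows occur elsewhere in the genome. Cyc1, cytochrome c1, rose by less (0.32 ± 0.07, adjusted p = 0.00852). Uqcrc1 (0.25, adjusted p = 0.05279), Uqcrc2 (0.11, adjusted p = 0.381) and the Rieske protein Uqcrfs1 (0.19, adjusted p = 0.1149) did not pass.

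In complex IV, each of the 11 liver and ubiquitous subunits (Cox4i1, Cox5a, Cox5b, Cox6a1, Cox6b1, Cox6c, Cox7a2, Cox7b, Cox7c, Cox8a and Ndufa4) was called higher in males, with log2 fold changes from 0.25 to 0.49. Of the 6 tested isoforms of other tissues 0 were called by edgeR or DESeq2 and 0 had an unadjusted p under 0.05, and all but Cox7a1 stood under 1 FPKM in both sexes. Cox7a2 (chr9:79603048-79607660, minus strand, mm9) read 55.45, 57.01, 52.32, 52.16 and 55.97 FPKM in males and 38.71, 43.65, 38.04, 37.85 and 39.53 in females. The lowest male stood above the highest female (0.49 ± 0.08, adjusted p = 0.0006835). Cox4i1 read 189.5 to 205.6 FPKM in males and 146.8 to 171.5 in females (0.35 ± 0.08, adjusted p = 0.007888). Cox7a2l, the supercomplex factor, had 0.11 ± 0.07 (adjusted p = 0.4288).

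In complex V the genes called were those outside F1, in the peripheral stalk and membrane part, 6 of 10 (Atp5g3, Atp5l, Atp5k, Atp5j2, Atp5h and Atp5o). Of the 5 subunits of F1, which include the gamma subunit of the rotor, 0 were called (median 0.21 against 0.27 in the peripheral stalk and membrane part, 4 of the 5 at an unadjusted p under 0.05 in edgeR and 3 of the 5 called by DESeq2). The difference between these parts was not tested. Atp5g3, 1 of the c-ring genes, read 186.6, 178.7, 180.5, 181.4 and 184.2 FPKM in males and 141.6, 149.3, 141.2, 139.5 and 144.5 in females. Its sexes did not overlap (0.37 ± 0.07, adjusted p = 0.002594). Atp5b, the catalytic subunit of the head, read 267.2, 296.5, 253.5, 244.2 and 241.9 FPKM in males and 254.5, 229.8, 252.2, 261.2 and 255.1 in females. Its sexes overlapped (0.08 ± 0.08, adjusted p = 0.6177). Of the 9 genes that make no subunit only Ndufaf4, a complex I assembly factor (chr4:24825230-24832148, plus strand, mm9), was called (0.48 ± 0.11, adjusted p = 0.01328). It read 3.316, 3.751, 3.721, 4.863 and 3.486 FPKM in males and 2.772, 2.864, 3.267, 2.948 and 2.112 in females.

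**Figure D3:**
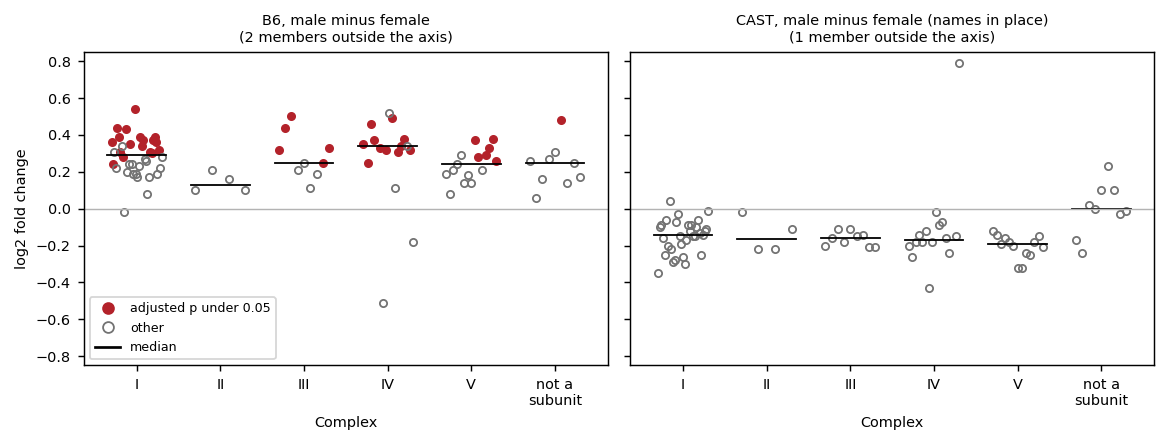
Log2 fold change of males over females (vertical axis) for each gene by complex, in B6 (left) and in CAST for the names that keep their place (right), with calls at an adjusted p under 0.05 filled in red and the median as a bar. In B6, 88 of 91 genes lie above 0, and in CAST 75 of 82 lie below 0. Cox6a2 and Cox4i2 in B6, and 1 gene in CAST, lie outside the axis.

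The size of the B6 sex difference followed transcript length, in these genes and in others. The 93 genes are short, with a median exon length of 848 bases against 3034 for 8894 protein-coding genes with a mean of at least 1 FPKM. Genes with too few reads for an estimate of exon length, such as Cox4i2 and Cox8c, did not enter the median. Under 600 bases the median log2 fold change was 0.33 in 22 of the genes and 0.31 in 56 other protein-coding genes. From 600 to 1000 bases it was 0.34 in 23 and 0.21 in 307 others, and from 1000 to 2000 bases 0.22 in 21 and 0.14 in 1485 others. Over 5000 bases, where none of the 93 lies, the median of 1623 others was -0.03. The share called higher was 68.18% of these genes and 32.14% of the others under 600 bases, and 69.57 and 22.15% from 600 to 1000 bases. In a fit whose scaling of each library follows exon length, 5 of the 91 remained higher and 1 lower in males, with a median of 0.08 (2.77% of all genes higher and 3.63% lower). Those higher were Cox7a2 (0.28), Uqcr11 (0.21), Ndufv1 (0.23), Ndufa13 (0.31) and Ndufaf4 (0.50), and the 1 lower was Ndufa7 (-0.29, adjusted p = 0.01636), an accessory subunit at -0.02 without this scaling.

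**Figure D4:**
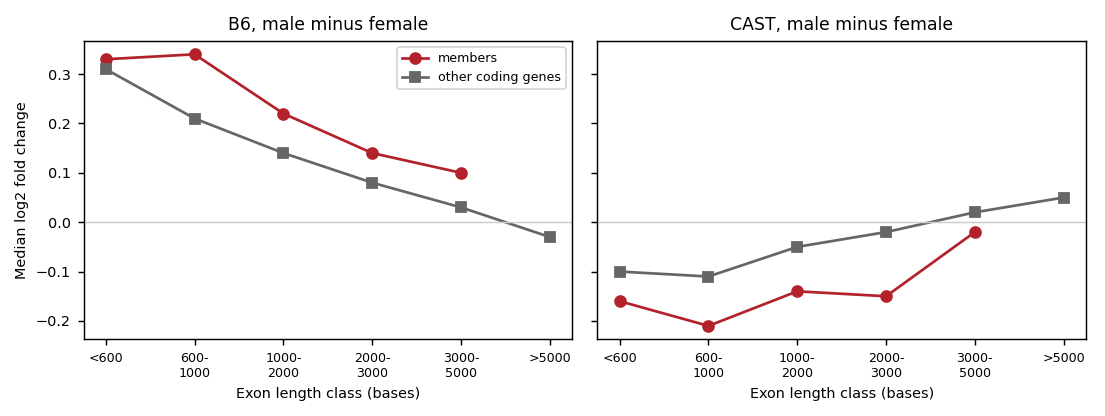
Median log2 fold change of males over females (vertical axis) by exon length class (horizontal axis), for the respiratory chain genes (red) and other protein-coding genes (grey), with a mean of at least 1 FPKM and names that keep their place. In B6 both lines are lower for long than for short genes, the red one with 0.33 under 600 bases, 0.34 from 600 to 1000 and 0.14 from 2000 to 3000, the grey one falling from 0.31 under 600 bases, and in CAST both lie below 0 for short genes (-0.16 and -0.10). The class of 3000 to 5000 bases holds 3 respiratory chain genes.

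Depth and cell type markers also moved with sex in B6. With the log2 library total as a covariate the median stayed at 0.26 and 2 of the 91 genes were called higher, Ndufb3 (0.67 ± 0.17) and Uqcr10 (0.49 ± 0.12), with 0 lower (1.2 and 1.61% of all genes). At an unadjusted p under 0.05 it had 42 higher and 0 lower (8.12 and 7.33% of all genes). Erythroid markers summed to 26.9 to 36.51 FPKM in B6 males and 2.833 to 5.423 in B6 females, with 4 of the 6 listed genes at 0 in every liver of both. Macrophage markers summed to 14.08 to 27.3 FPKM in males and 33.15 to 39.5 in females (6 of the 7 listed were in the files, 0 of them at 0 throughout), and stellate cell markers to 17.1 to 25.31 and 30.37 to 34.52. Endothelial markers summed to 14.9 to 18.28 and 19.31 to 24.7 FPKM. The 8 hepatocyte markers were also apart, at 20790 to 21730 FPKM in males and 25630 to 31160 in females, with 0 of them at 0 throughout. The part of these cell types in the result was not tested.

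Promoters are described for the 76 of the 93 genes with an entry in RefSeq (build GRCm38.p6, 250 bases before to 50 after the start). Of the 76, 35 had a call in the B6 sex comparison and 41 did not. Of 3 motifs known from promoters of respiratory genes, searched on both strands, the NRF1 motif GCGCATGCG was in 10 of the 76 promoters (13.2%) and in 1.95% of 27025 promoters of all genes. The ETS motif CCGGAAG was in 17 (22.4% against 9.93%), and the YY1 motif AAGATGGCG in 8 (10.5% against 1.64%). The NRF1 motif was in 6 of the 35 with a call in the B6 sex comparison and in 4 of the other 41. For the ETS motif these were 10 and 7, and for the YY1 motif 4 and 4. The splits were not tested, and the promoters of all genes were not matched for expression in liver. The 3 promoters below are those of a gene of complex IV, of complex V and of complex III that rose in B6 males and hold both the NRF1 and the ETS motif. Capitals mark the matches on either strand, and matches to 1 motif on both strands may overlap.
Cox6a1 (chr5:115348909-115349208, minus strand): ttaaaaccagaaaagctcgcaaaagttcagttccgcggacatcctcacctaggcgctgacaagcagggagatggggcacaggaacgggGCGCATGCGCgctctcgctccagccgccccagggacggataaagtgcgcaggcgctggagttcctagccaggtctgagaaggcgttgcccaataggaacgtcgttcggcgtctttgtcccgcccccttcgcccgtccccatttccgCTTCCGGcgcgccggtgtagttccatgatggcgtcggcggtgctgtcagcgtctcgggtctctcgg
Atp5l (chr9:44920693-44920992, minus strand): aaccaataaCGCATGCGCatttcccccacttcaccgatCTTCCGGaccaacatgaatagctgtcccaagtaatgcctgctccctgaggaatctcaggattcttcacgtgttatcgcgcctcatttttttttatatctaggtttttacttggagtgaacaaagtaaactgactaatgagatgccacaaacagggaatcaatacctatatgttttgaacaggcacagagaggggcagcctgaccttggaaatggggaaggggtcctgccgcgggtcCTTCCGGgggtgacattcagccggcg
Uqcr11 (chr10:80406772-80407071, minus strand): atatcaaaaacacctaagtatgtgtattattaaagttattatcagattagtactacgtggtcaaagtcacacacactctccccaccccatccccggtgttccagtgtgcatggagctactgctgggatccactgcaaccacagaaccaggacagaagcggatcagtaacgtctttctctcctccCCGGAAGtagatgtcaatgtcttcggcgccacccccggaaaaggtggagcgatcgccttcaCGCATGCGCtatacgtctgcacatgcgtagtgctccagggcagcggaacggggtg
The first NRF1 match starts 162 bases before the start site in Cox6a1, 241 before it in Atp5l and 5 before it in Uqcr11. A match describes letters, not binding.

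In CAST, among the 82 genes whose names keep their place, 0 were called higher or lower in males by edgeR, against 2.34% of all 21647 genes higher and 3.33% lower, and 0 were without overlap higher (3.92% of all) or lower (2.51%). Values leaned the other way from B6, with 75 of the 82 below 0 and a median of -0.15 against -0.01 over all genes. At an unadjusted p under 0.05, 19 were lower and 1 higher in males (9.53 and 8.38% of all genes). Over all 90 names tested, 0 were called higher and 1 lower (2.35 and 3.3% of all genes), under the name Cox7b2, whose counts line up with Cox7b of B6, and DESeq2 called 5 lower and 0 higher (7.04 and 6.09% of its genes). The medians were -0.13 in complex I, -0.16 in complexes II and III, -0.17 in complex IV and -0.19 in complex V. With the library total as a covariate the median was -0.04. With a replicate block, 11 of the 90 names were called lower and 0 higher. A share over all genes was not computed for that fit. Cox7a2 read 58.53, 66.7, 53.84, 56.23 and 46.17 FPKM in CAST males and 63.84, 65.95, 52.95, 48.11 and 52.67 in CAST females, which overlap throughout (-0.09 ± 0.10, adjusted p = 0.7268). Hepatocyte markers stood apart between the CAST sexes, at 17870 to 20160 FPKM in males and 20960 to 26810 in females. Macrophage, erythroid, endothelial and stellate sums overlapped. The part of cell types in the CAST values was not tested.

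The difference of the sex differences, B6 minus CAST, was tested as the interaction of strain and sex. Of the 82 genes, 22 had a larger male over female ratio in B6 than in CAST and 0 a smaller one, against 1.19 and 0.672% of 22461 genes (median 0.44 against 0.05 over all genes). Over all 91 names there were 23 and 0 (1.44 and 0.838% of all genes). The 22 were 8 of complex I, 3 of complex III, 5 of complex IV and 6 of complex V, with 0 of complex II and 0 of the 9 that make no subunit (2 of the 4 and 0 of the 9 at an unadjusted p under 0.05, and 2 and 0 by DESeq2). Ndufb8, an accessory subunit of the membrane arm of complex I, had the next to smallest adjusted p. It read 47.57, 46.6, 49.25, 48.24 and 53.91 FPKM in males and 38.61, 40.08, 36.64, 38.69 and 42.14 in females of B6. In CAST it read 55, 61.7, 48.92, 53.12 and 43.92 FPKM in males and 69.76, 67.55, 55.72, 55.21 and 59.26 in females. Every B6 male lay above every B6 female and 4 of the 5 CAST males lay below every CAST female, with an interaction of 0.66 ± 0.13 (adjusted p = 0.005913).

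Among the genes called, the largest interaction was that of Ndufa2, an accessory subunit of the matrix arm (0.74 ± 0.17, adjusted p = 0.0202). It read 33.03, 28.67, 27.92, 30.93 and 32.51 FPKM in B6 males, 24.19, 26.69, 23.44, 23.78 and 20.84 in B6 females, 22.33, 25.65, 20.31, 23.62 and 17.48 in CAST males and 31.9, 32.49, 20.88, 23.54 and 22.98 in CAST females. B6 males stood apart from B6 females, and 2 CAST females from the other CAST livers. Ndufb7, another accessory subunit, had 0.66 ± 0.16 (adjusted p = 0.02798). Atp5g3 had the smallest adjusted p (0.62 ± 0.12, adjusted p = 0.004749), and Cox8a, a small complex IV subunit (0.63 ± 0.14, adjusted p = 0.01308), and Cyc1 (0.52 ± 0.12, adjusted p = 0.01579) followed after Ndufb8. Cox8a read 102.1, 99.21, 95.8, 99.38 and 101.6 FPKM in males and 79.14, 83.93, 75.18, 71.2 and 77.6 in females of B6, and 104, 115.3, 96.34, 92.68 and 78.18 in males and 123.7, 122.5, 98.45, 98.03 and 101.4 in females of CAST. The B6 sexes did not overlap and those of CAST did. Both the scaling by exon length and the library total as a covariate ended the calls: each left 0 of the 91 called in either direction by edgeR, with medians of 0.14 and 0.21. With the first, 0.791% of all genes were called larger and 0.865% smaller, and 24 and 1 of the 91 had an unadjusted p under 0.05 (6.43 and 6.35% of all genes). With the second, 0.419 and 0.489% of all genes were called, and 29 and 1 of the 91 had an unadjusted p under 0.05 (5.21 and 5.43%). DESeq2, without either, called 50 larger and 0 smaller (4.36 and 3.24% of its genes). Under 600 bases the median interaction was 0.50 in the respiratory chain genes and 0.44 in the others, and over 5000 bases it was -0.07 in the others. With 1 liver left out the count ran from 6, without B6 female 3 or CAST female 1, to 43, without CAST male 2.

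In females, most of these genes were lower in B6 than in CAST. Of the 82 genes whose names keep their place, 56 were lower and 3 higher in B6 females, against 16.6 and 16.9% of 22461 genes, with a median log2 fold change (B6 minus CAST) of -0.41 against 0.01 over all genes. Every B6 female lay below every CAST female in FPKM for 43 of the 82, and above for 3 (10.2 and 11.9% of all genes). Over all 91 names, 62 were lower and 6 higher (20% of all genes in each direction). The lower genes were 22 of 31 in complex I, 3 of 4 in complex II, 7 of 9 in complex III, 9 of 16 in complex IV and 11 of 13 in complex V, plus 4 of the 9 that make no subunit. The scaling by exon length gave 47 lower and 8 higher with a median of -0.20 (15.5 and 18.9% of all genes), and the library total as a covariate 48 lower and 3 higher with a median of -0.30 (13.9 and 15.5%). Since the reads of each strain were mapped to that strain's own genome, mm9 in the case of B6, strain and mapping reference cannot be told apart. Some cell type markers moved with strain too. In females, macrophage markers summed to 33.15 to 39.5 FPKM in B6 and 7.739 to 26.11 in CAST, and erythroid markers to 2.833 to 5.423 and 1.088 to 2.028 (4 and 5 of the 6 at 0 throughout). Hepatocyte markers overlapped between the females of both strains (25630 to 31160 and 20960 to 26810 FPKM). In males, macrophage markers summed to 14.08 to 27.3 FPKM in B6 and 4.826 to 12.84 in CAST, erythroid markers to 26.9 to 36.51 and 1.779 to 3.254, and hepatocyte markers to 20790 to 21730 and 17870 to 20160. Endothelial and stellate sums overlapped between the strains in both sexes. Endothelial ones were 19.31 to 24.7 FPKM in B6 and 13.31 to 33.92 in CAST females, and 14.9 to 18.28 and 10.97 to 17.38 in males. Stellate ones were 30.37 to 34.52 and 25.86 to 39.66 FPKM in females, and 17.1 to 25.31 and 24.29 to 30.6 in males. Lymphocyte, cholangiocyte and smooth muscle sums were not set between strains, since each list holds 2 names of another order. The part of these cell types in the strain differences was not tested.

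Cox7c, a small subunit of complex IV (chr13:86184421-86186509, minus strand, mm9), was the most reduced of the genes called lower in B6. It read 42.19, 43.93, 36.52, 38.52 and 35.84 FPKM in B6 females and 126.1, 119.6, 96.25, 96.41 and 100 in CAST females (-1.53 ± 0.11, adjusted p = 1.52e-11). In males it read 49.94, 47.32, 45.29, 47.83 and 55.04 in B6 and 107.7, 119.7, 98.89, 105.3 and 77.15 in CAST (-1.02 ± 0.11, adjusted p = 2.393e-08). The strains did not overlap in either sex, and 29.8% of its windows of 50 bases occur elsewhere in mm9, whose part in the difference was not tested. Of the 82 genes it was the 1 called with a fold change above 2 downward in each sex (6.76% of all genes in males, 6.78% in females). Upward there were 2 in males, Ndufa4l2 and Atp5sl, and 1 in females, Ndufa4l2 (10.1 and 10.8% of all genes).

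Among the catalytic and core subunits, Uqcrc1, a core protein of complex III with no window elsewhere (0%), read 58.51, 59.36, 58.3, 61.06 and 66.42 FPKM in B6 females and 111.7, 98.35, 91.47, 92.15 and 92.74 in CAST females (-0.76 ± 0.09, adjusted p = 6.165e-08). Its B6 and CAST males were apart too, at 66.9 to 74.58 and 80.46 to 105.6 FPKM (-0.40 ± 0.09, adjusted p = 0.0005657). Ndufs1 read 18.11 to 21.72 FPKM in B6 females and 24.54 to 29.48 in CAST females (-0.53 ± 0.08, adjusted p = 4.306e-06), and again -0.36 ± 0.08 in males (adjusted p = 0.0005931). Atp5b had -0.65 ± 0.09 in females (adjusted p = 9.891e-07) and -0.43 ± 0.09 in males (adjusted p = 0.0002941). The FPKM of these 3 genes did not overlap between the strains in either sex. After Cox7c, the most reduced of the genes called in B6 females were Atp5k (-0.95 ± 0.11), a membrane subunit of the ATP synthase, Atp5o (-0.93 ± 0.09), which joins its head to the stalk, and Uqcr10 (-0.93 ± 0.11), a small subunit of complex III. Of other core or cofactor-carrying subunits, Cyc1 (-0.58), Sdhb (-0.55), Atp5a1 (-0.47), Uqcrfs1 (-0.46), Uqcrc2 (-0.37), Sdhc (-0.32), Ndufv1 (-0.31) and Sdhd (-0.22) were each lower in B6 females. Sdha was not called in either sex, at 66.67 to 80.92 FPKM in B6 females and 70.68 to 79.23 in CAST females, with -0.07 ± 0.08 in females and 0.06 ± 0.08 in males (adjusted p = 0.5603 and 0.5958).

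**Figure D5:**
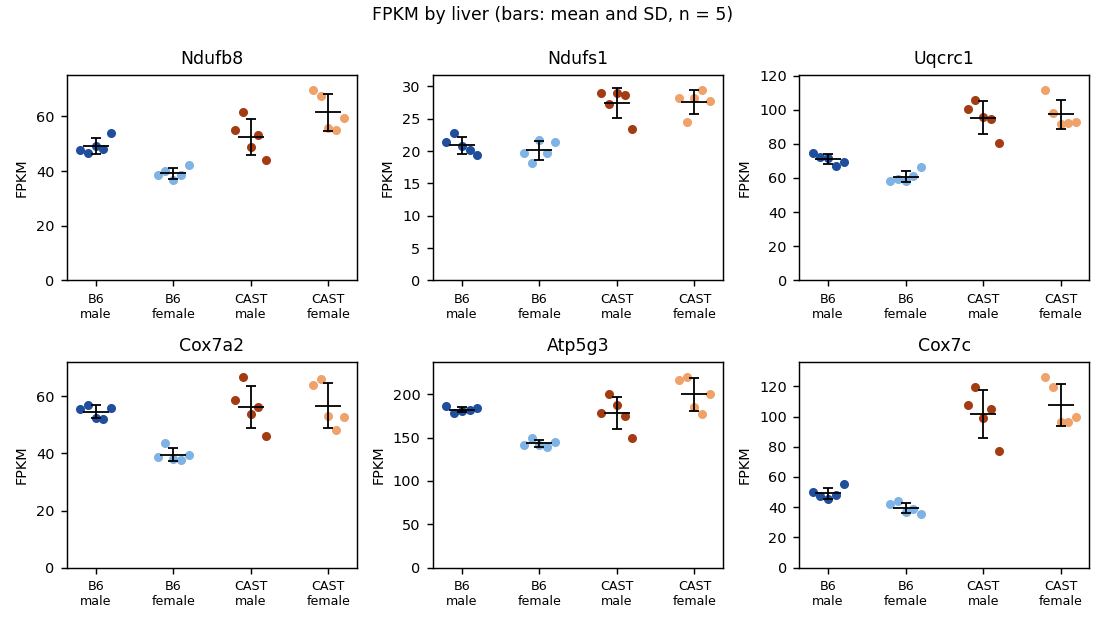
FPKM of 6 genes (vertical axes, each from 0), 1 point per liver, with mean and SD (n = 5). Ndufb8, Cox7a2 and Atp5g3 show B6 females apart from B6 males. Ndufs1, Uqcrc1 and Cox7c show CAST above B6 in both sexes, as for Cox7c with 35.84 to 55.04 FPKM in B6 and 77.15 to 126.1 in CAST.

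In males the strain differences were called about as often as over all genes. Of the 82 genes, 14 were higher and 10 lower in B6 males, against 17.1 and 14.6% of all genes, with a median of 0.05 (0.07 over all genes). In FPKM, 7 lay without overlap above and 6 below (11.7 and 10.6% of all genes). The split turned with the scaling: 11 higher and 24 lower with the scaling by exon length (18 and 14.8% of all genes), and 8 higher and 17 lower with the library total as a covariate (16.1 and 14.5%). It also turned with single livers. Over all 91 names it was 18 higher and 14 lower (20.3 and 18.1% of all genes), but 13 and 22 without CAST male 5, 14 and 17 without B6 male 5, 18 and 19 without CAST female 2, and 17 and 19 without CAST female 3 or 4, against 23 and 11 without CAST male 2. CAST male 5 had the lowest share of counts in the 93 genes among CAST livers (1.015%). Of the genes called lower in B6 males, 9 were subunits, led after Cox7c by Atp5o (-0.46 ± 0.09), Atp5b and Atp5k (-0.43 ± 0.11). Higher in B6 males were 6 accessory subunits of complex I, with Ndufa2 (0.50 ± 0.12, adjusted p = 0.002069) and Ndufa6 (0.42 ± 0.10) at their head, and 3 of the 9 genes that make no subunit.

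Atp5sl, an assembly factor of complex I (chr7:26404433-26410570, plus strand, mm9), was higher in B6 in both sexes. It read 6.739, 6.033, 5.441, 4.645 and 6.252 FPKM in B6 males and 2.594, 2.91, 2.378, 2.711 and 2.434 in CAST males (1.19 ± 0.11, adjusted p = 1.559e-09). In females it read 5.361 to 6.285 FPKM in B6 and 2.354 to 3.445 in CAST (0.88 ± 0.11, adjusted p = 2.269e-07). No B6 liver overlapped a CAST liver, and 0% of its windows occur elsewhere. Ndufaf2, another assembly factor, was also called in both sexes (0.73 ± 0.15 in males, 0.45 ± 0.15 in females). Ndufa4l2 was called too (1.43 ± 0.44 in males and 2.37 ± 0.46 in females), at levels between 0 and 0.966 FPKM in any liver.

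Further genes of the pathway were counted in lists. The list of assembly factors overlaps with the genes described above, since it also holds Ndufaf4. Its counts and medians in all comparisons are therefore not those of other genes alone. In the B6 sex comparison, where 3.99% of all genes were higher in males and 3.56% lower, 51 of 77 cytosolic ribosomal protein genes were higher in males and 0 lower (median 0.31), and 25 of 77 mitochondrial ribosomal protein genes were higher and 0 lower (median 0.25). Assembly factors of the complexes were called in 4 of 43 cases, each higher, with Ecsit of complex I at 0.35 ± 0.07. The calls include Ndufaf4 (0.48 ± 0.11), already counted above. Of the 13 genes of the tricarboxylic acid cycle, 2 were higher, Fh1 (fumarase, 0.48 ± 0.12) and Mdh2 (malate dehydrogenase, 0.27 ± 0.07), and 0 lower. Of 21 electron carriers and inner membrane proteins 2 were higher and 3 lower, with Coq7, an enzyme of ubiquinone synthesis, at 0.90 ± 0.11 and the uncoupling protein Ucp2 at -0.94 ± 0.13. Of 15 regulators of mitochondrial biogenesis 0 were called by edgeR (4 at an unadjusted p under 0.05, 1 by DESeq2), with the coactivator Ppargc1a at -0.54 ± 0.21 (adjusted p = 0.1324). Cycs, cytochrome c itself, was higher in males (0.36 ± 0.08, adjusted p = 0.006963). DESeq2 called more ribosomal protein genes, 64 of 77 cytosolic and 30 of 77 mitochondrial ones higher and 0 lower (8.03 and 7.68% of its genes). Fewer were called with the scaling by exon length or the library total as a covariate. With the scaling by exon length, 3 cytosolic and 3 mitochondrial ribosomal protein genes were called higher (medians 0.10 and 0.12), 3 assembly factors (0.08) and 0 genes of the tricarboxylic acid cycle (-0.01), and the carriers had 2 higher and 3 lower (2.77 and 3.63% of all genes). With the library total as a covariate, 7 cytosolic and 3 mitochondrial ribosomal protein genes were higher (medians 0.36 and 0.27). In that fit 0 assembly factors (median 0.22) and 0 genes of the cycle (0.02) were called, and the carriers had 1 in each direction (1.2 and 1.61% of all genes).

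In the CAST sex comparison, names out of place aside and with 2.34% of all genes higher in males and 3.33% lower, 3 of 52 cytosolic ribosomal protein genes were lower and 0 higher (median -0.27), as were 2 of 18 carriers, Nnt (-0.59 ± 0.09), the transhydrogenase that makes mitochondrial NADPH, and Etfdh (-0.41 ± 0.09), which passes electrons from fatty acid oxidation to ubiquinone. Among the 52 cytosolic ones DESeq2 called 19 lower and 0 higher (7.04 and 6.09% of its genes). At an unadjusted p under 0.05 edgeR had 39 of them lower and 0 higher (9.53 and 8.38% of all genes). Of 42 assembly factors 1 was lower, Acad9 of complex I (-0.34 ± 0.08). Of 14 regulators, Ppargc1a was lower (-0.49 ± 0.14, adjusted p = 0.04092) and its relative Pprc1 higher (0.50 ± 0.12). Of 13 cycle genes and 28 mitochondrial ribosomal protein genes edgeR called 0 (6 and 2 at an unadjusted p under 0.05, 2 and 0 by DESeq2). Over all names, 5 of 74 cytosolic ribosomal protein genes were lower, 4 with the scaling by exon length (3.54% of all genes lower and 2.73% higher) and 0 with the library total as a covariate (3.3 and 2.46%, median -0.16).

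Between females, names out of place aside and with 16.6% of all genes lower and 16.9% higher in B6, 15 of 18 carriers and inner membrane proteins were lower in B6 and 1 higher, 26 of 42 assembly factors lower and 3 higher, 8 of 13 tricarboxylic acid cycle genes lower and 2 higher, and 5 of 14 biogenesis regulators lower and 1 higher. Of the ribosomal proteins, 25 of 52 cytosolic and 13 of 28 mitochondrial ones were lower and 0 higher (medians -0.26 and -0.25). Over all names, cytosolic ribosomal protein genes had 40 lower and 10 higher of 78 (median -0.25) and mitochondrial ones 40 lower and 16 higher of 77 (-0.27), with 20% of all genes in each direction. With the scaling by exon length these were 23 lower and 20 higher (-0.06) and 35 lower and 24 higher (-0.15), with 19% of all genes lower and 21.8% higher. With the library total as a covariate they were 24 lower and 12 higher (-0.15) and 36 lower and 17 higher (-0.18), with 17.5 and 18.8% of all genes. Over all names, 16 of 21 carriers were lower and 3 higher, 27 of 43 assembly factors lower and 3 higher, 8 of 13 cycle genes lower and 2 higher, and 5 of 15 regulators lower and 2 higher. Nnt was lower in B6 (-1.26 ± 0.10 in females, -1.10 ± 0.10 in males). Lyrm7, an assembly factor of complex III, had -1.83 ± 0.15 in females, and Cs, citrate synthase, went the other way (0.57 ± 0.08). Cycs was lower in B6 in both sexes (-0.82 ± 0.09 in females, -0.40 ± 0.09 in males). Between males, the cytosolic ribosomal protein genes called were mostly higher in B6. With 14.6% of all genes lower and 17.1% higher in B6, 34 of 52 cytosolic ones were higher and 0 lower (median 0.32), and 7 of 28 mitochondrial ones higher and 4 lower (0.07). Over all names these were 50 higher and 8 lower of 78 (0.33) and 26 higher and 23 lower of 77 (0.05), with 20.3% of all genes higher and 18.1% lower. With the scaling by exon length the cytosolic ones had 44 higher and 9 lower (0.24) and the mitochondrial ones 25 higher and 28 lower (-0.03), with 20.9 and 18.5% of all genes. With the library total as a covariate these were 40 and 9 (0.24) and 25 and 26 (-0.02), with 19.6 and 18.1% of all genes. Of the other lists, 14 of 42 assembly factors were lower and 6 higher in B6 males, 9 of 18 carriers lower and 3 higher, 6 of 13 cycle genes lower and 3 higher, and 4 of 14 regulators lower and 1 higher.

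In the interaction, 38 of 52 cytosolic ribosomal protein genes were larger in B6 and 0 smaller (median 0.57), as were 4 of 28 mitochondrial ribosomal protein genes, 2 of 42 assembly factors and 1 of 18 carriers (1.19% of all genes larger and 0.672% smaller). Over all names, 56 of 78 cytosolic ribosomal protein genes were called larger (1.44% of all genes), 12 with the scaling by exon length (0.791% of all, median 0.24) and 0 with the library total as a covariate (0.419% of all, median 0.40, against 0.57 without it). The mitochondrial ones went from 7 of 77 (median 0.33) to 2 (0.10) and 0 (0.19), and the assembly factors from 2 of 43 (0.21) to 0 (0.08) and 0 (0.09).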

How the data were processed

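Total polyA RNA of liver was sequenced in 20 mice, 5 per strain and sex. Per the labels and methods, the authors mapped reads with TopHat, those of CAST to a genome and annotation moved onto it with g2gtools, and counted uniquely mapped reads over gene exons with featureCounts. The strand setting is not given in the sources used here. The deposited counts are raw whole reads per gene in 1 table per strain. The authors' FPKM values are those reads scaled to exon length and library total. In the same tables, columns of fold changes, p-values and means were not used, and 24 columns of other per-sample or pooled values were left out. No pair of livers in a group was a repeat (lowest chi-square per degree of freedom 9.85).

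The members and all gene lists were chosen with earlier results of these data known. Each sex comparison was fitted in its own strain, and the strain differences and the interaction in 1 fit of 4 group means over 20 livers, with edgeR (4.0.16, TMM scaling, quasi-likelihood test, Benjamini-Hochberg adjustment over all genes tested, threshold 0.05) in R 4.3.3. A gene listed in 1 count table entered the joint fit with counts of 0 in the other strain if its FPKM there was 0, and otherwise was left out (2028 genes). Other settings used DESeq2 (1.42.0), limma (3.58.1) on log2(FPKM + 1), log2(FPKM + 0.1) and log2(FPKM + 0.01), filterByExpr, a replicate block and each liver left out in turn. Chosen after seeing the data were the scaling by exon length (lowess of log2 ratios, span 0.3), the library total as a covariate, and leaving out or re-ordering the gene names whose place differs between the 2 sort orders. Some of the fits were run on simulated counts with large changes and no effect of exon length. DESeq2 and the fit with the library total were not among them. Such runs cannot decide how the fits treat small changes or changes that follow exon length. Exon lengths were computed from count and FPKM where a gene had at least 20 counts in a library, and scaled per library to annotated mm9 exon lengths. Named genes were members called with a fold change above 2, the 4 with the largest change per direction and comparison at a mean of at least 1 FPKM, tissue isoforms, core subunits and those with cofactors or catalytic sites and the highest and lowest of each complex. Of the lists, Cycs, Nnt and Ppargc1a and those with the smallest adjusted p were named. Uniqueness was the share of 50-base transcript windows found elsewhere in mm9. Tables and figures used Python 3.11.15, pandas 2.3.3, numpy 2.4.6 and matplotlib 3.10.9. 1 gene that the rule names is not reported here. Protein sequences were not used here.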

Additional observations from a re-analysis of the deposited data

Results flagged for a closer look

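In 7 of the 181 group values tested, 1 liver stood apart from the other 4 of its group by more than Dixon's limit, and chance gives about 1 in 20. B6 female 2 was involved 3 times. It had the lowest Atp5b, 229.8 FPKM against 252.2 to 261.2 in the others, and the highest Cox7a2 (43.65 against 37.85 to 39.53 FPKM) and Cox7b (47.47 against 40.17 to 41.68 FPKM) of its group. CAST male 5 was also involved 3 times, with the lowest Sdha (66.97 against 80.31 to 82.99 FPKM), the lowest Sdhc (40.28 against 55.06 to 60.64 FPKM) and the lowest share of complex II in all counts (0.08574% against 0.11 to 0.1167%). B6 male 4 had the highest Ndufaf4 (4.863 against 3.316 to 3.751 FPKM).

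The sex difference itself differed between the strains in 23 of the 91 names (edgeR's interaction term over all names as deposited, adjusted p 0.004515 to 0.04649), in each case with a larger male over female ratio in B6 than in CAST. With the scaling by exon length or with the library total as a covariate, 0 of the 91 were called. On the log2 scale, without either, the difference was 0.75 for Ndufa2, 0.66 for Ndufb7 and Ndufb8, 0.63 for Ndufs7, 0.58 for Ndufb10, 0.55 for Ndufb9 and Ndufb11, 0.53 for Ndufs6 and 0.49 for Ndufb2 in complex I. In complex III it was 0.62 for Uqcr10 and Uqcr11 and 0.53 for Cyc1. In complex IV it was 0.64 for Cox8a, 0.60 for Cox5b, 0.59 for Cox7a2, 0.57 for Cox4i1 and 0.56 for Cox6a1. In complex V it was 0.62 for Atp5g3, 0.55 for Atp5h, 0.54 for Atp5l, 0.51 for Atp5g1, 0.49 for Atp5o and 0.48 for Atp5g2.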

How the results depend on the processing

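The counts here are over all names as deposited, 91 in B6 and in the joint fit and 90 in CAST. The totals of the strain differences, 32 in males and 68 in females, stayed within 1.5 times under every setting tried (27 to 37 and 62 to 72 with 1 liver left out), but their split did not. In males, 18 higher and 14 lower became 16 and 27 with the scaling by exon length, 12 and 21 with the library total and 13 and 22 without CAST male 5. In females, 6 higher and 62 lower became 13 and 51 with the scaling by exon length. The 41 of the sex difference in B6 became 16 at an adjusted p under 0.01, 6 with the scaling by exon length, 2 with the library total as a covariate and 21 to 52 with 1 liver left out. The 1 of the sex difference in CAST became 5 with DESeq2, 2 with DESeq2 size factors, 4 with filterByExpr, 0 to 5 with 1 liver left out (5 without CAST male 2, 3 without CAST female 5), and 0 at an adjusted p under 0.01, with the exact test, library size alone, the 4 limma settings, the scaling by exon length, the library total and the names of another order left out. The 23 of the interaction became 50 with DESeq2, 5 with library size alone, 7, 7 and 9 with limma (pseudocounts 0.01, 0.1 and 1), 2 at an adjusted p under 0.01, and 0 with the scaling by exon length or the library total. With 1 liver left out it ran from 6 to 43 and moved by over 1.5 times without B6 female 1 (14), 3 (6), 4 (9) or 5 (15), B6 male 1 (9), 3 (12) or 5 (12), CAST female 1 (6), 2 (9) or 5 (41), or CAST male 1 (13), 2 (43), 3 (15) or 4 (8). The causes of these shifts were not tested.

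Livers share replicate numbers across groups, but the numbers did not pair them throughout: 6 of the 20 same-numbered pairs correlated over 0.1 (-0.14 to 0.35), and 5 livers correlated best with their own number. The pairs of a CAST male and a CAST female ran from -0.08 to 0.35. With a replicate block, the counts were 41 and 11 for the sex differences in B6 and CAST, 35 and 69 for the strain differences in males and females and 32 for the interaction. With the block and filterByExpr together, CAST had 12 and the interaction 39. The CAST calls were all lower in males in both of these fits.

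With the CAST names re-ordered, the strain difference turned its sign for Ndufa1 (0.19), Ndufa11 (0.04) and Ndufa13 (-0.15) in males and for Cox7b (-0.48), Ndufa10 (-0.25) and Ndufa13 (-0.64) in females. Of 3062 values of named genes with a call, 2722 kept direction and call under the alternatives, 334 lost the call and these 6 reversed. The call was lost in 158 of 468 values of the interaction, 81 of 506 of the B6 and 16 of 23 of the CAST sex difference. For the strain differences it was lost in 69 of 1495 values in females and 10 of 570 in males. Genes of few reads have wide errors, as Cox6a2 (mean 0.007532 FPKM) with an SE of 1.46 in the B6 sex comparison.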
